A study of Mus musculus with 4 samples.

Results

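A group of 10 cytokine genes of the macrophage inflammatory response and its restraint was followed here: Il1a, Il1b, Il1rn, Tnf, Il6, Il10, Il18, Osm, Lif and Il12b. They were taken by gene symbol from the platform annotation, using every probe set that names only that gene, and make up 10 of the 18193 genes measured, with 14 of the 45101 probe sets. The macrophages came from the peritoneal cavity of mice given thioglycolate, an irritant that draws monocyte-derived macrophages into the cavity, and were kept on permanox slides for 18 hours. The study asked how loss of DAP12, the ITAM-bearing adaptor encoded by Tyrobp, alters macrophage expression at rest and under interleukin-4 (IL-4). The 4 groups were Dap12-KO with IL-4, Dap12-KO untreated, wild type (WT) with IL-4 and WT untreated, and each was 1 array with no replicate. The labels used here do not give the strain, sex or age of the mice, the construction of the Dap12-KO allele, the number of mice behind an array or the dose of IL-4.

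IL-1α and IL-1β are 2 ligands of the same receptor, IL-1R1, and the IL-1 receptor antagonist encoded by Il1rn occupies that receptor without signalling. IL-1β and IL-18 are made as inactive precursors that caspase-1 cleaves in inflammasomes, and TNF is a membrane-bound trimer shed by the protease ADAM17. IL-6, oncostatin M (Osm) and LIF signal through receptor complexes that contain gp130, IL-10 restrains macrophage cytokine synthesis through STAT3, and the p40 chain encoded by Il12b is shared by IL-12 and IL-23. In macrophages IL-4 signals through STAT6 and is known as a brake on the production of several inflammatory cytokines.

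Values are log2 probe set signals as the authors deposited them, and their precision is limited by there being 4 arrays. A gene with several probe sets is represented by the one with the highest mean, and a gene counts as above the level floor where its highest value on the 4 arrays reaches 6.39, the median of all values in the table. Of the arrays labelled Dap12-KO, the IL-4 one stood apart: its values had an interquartile range of 2.54 log2 units, against 3.19 on the untreated Dap12-KO array, 3.24 on the WT IL-4 array and 3.25 on the untreated WT array. Most cytokine differences that use it are therefore also given after cyclic loess, a normalization between arrays that removes level-dependent shifts. Other values that use it, among them array readings, marker counts, nearest-gene distances and some pathway genes, are given as deposited only. Tyrobp read 13.27 on the IL-4 and 14.03 on the untreated array labelled Dap12-KO, against 14.13 and 14.39 on the WT arrays, so its signal did not bear out the label, and the part of Tyrobp that the probe set covers relative to the deletion is not known here. The name Dap12-KO array therefore stands for the label throughout. All 8 macrophage markers were above the floor on all 4 arrays, with log2 summed signals between 16.2 and 16.7. Neutrophil markers summed to 9.96, 10.1, 9.82 and 10.5 (log2) on the Dap12-KO IL-4, Dap12-KO untreated, WT IL-4 and WT untreated arrays, with S100a9 below the floor on all of them. In such bulk samples fewer cells of a type and less RNA per cell cannot be told apart.

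Of the 10 cytokines 6 were above the floor, namely Il1a, Il1b, Il1rn, Tnf, Il18 and Osm, and Il6, Il10, Lif and Il12b were below it. The bases just upstream of the start sites of 5 of the 6 are printed first, because the results turn on their levels and because Il1a and Il1b had like profiles while Il18 did not share them. Each is the 250 bases before the start site on the gene's own strand, from RefSeq on GRCm38.p6, and capitals mark matches to the searched motifs on either strand. The Il1a window is chr2:129309973-129310222 (minus strand), and that of Il1b is chr2:129371140-129371389 (minus strand), with start sites 61167 bases apart. The windows of Il1rn are chr2:24336610-24336859 and chr2:24345041-24345290 (both plus strand), for 2 of its alternative starts. That of Tnf is chr17:35202008-35202257 (minus strand), and that of Il18 is chr9:50554450-50554699 (plus strand).
Il1a: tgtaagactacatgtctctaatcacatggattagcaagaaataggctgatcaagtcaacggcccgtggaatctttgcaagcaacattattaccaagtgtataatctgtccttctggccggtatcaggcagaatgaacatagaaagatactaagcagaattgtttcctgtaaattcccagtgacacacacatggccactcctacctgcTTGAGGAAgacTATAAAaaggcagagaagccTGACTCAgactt
Il1b: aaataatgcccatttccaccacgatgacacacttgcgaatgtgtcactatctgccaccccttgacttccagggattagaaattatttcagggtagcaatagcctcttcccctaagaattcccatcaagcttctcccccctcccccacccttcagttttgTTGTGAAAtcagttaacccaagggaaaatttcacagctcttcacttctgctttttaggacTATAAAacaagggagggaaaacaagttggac
Il1rn, upstream start: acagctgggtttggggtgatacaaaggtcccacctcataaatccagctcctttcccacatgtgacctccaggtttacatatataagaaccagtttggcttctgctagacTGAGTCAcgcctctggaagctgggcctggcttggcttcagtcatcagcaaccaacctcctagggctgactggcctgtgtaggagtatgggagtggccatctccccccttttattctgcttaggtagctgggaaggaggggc
Il1rn, downstream start: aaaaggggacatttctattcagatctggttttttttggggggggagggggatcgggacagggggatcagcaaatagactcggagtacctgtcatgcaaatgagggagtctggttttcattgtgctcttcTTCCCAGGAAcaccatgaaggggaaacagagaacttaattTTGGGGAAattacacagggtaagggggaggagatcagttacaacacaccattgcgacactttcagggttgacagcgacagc
Tnf: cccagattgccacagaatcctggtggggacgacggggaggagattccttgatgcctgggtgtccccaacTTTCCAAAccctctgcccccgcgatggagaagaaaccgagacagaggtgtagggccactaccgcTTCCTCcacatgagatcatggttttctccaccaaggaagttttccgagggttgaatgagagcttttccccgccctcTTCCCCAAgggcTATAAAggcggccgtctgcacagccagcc
Il18: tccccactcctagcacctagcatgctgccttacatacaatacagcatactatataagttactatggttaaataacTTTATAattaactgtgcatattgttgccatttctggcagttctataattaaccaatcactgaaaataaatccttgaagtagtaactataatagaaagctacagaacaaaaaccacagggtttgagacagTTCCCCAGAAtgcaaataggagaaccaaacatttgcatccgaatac

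The reference table held windows for 8 of the 10 cytokines, all but Il10 and Osm. Motifs were searched on both strands. The general promoter element, called TATA here, was TATAAA. The motif of C/EBP factors was TTNNGNAA, and that of AP-1 was TGANTCA. For PU.1, the lineage factor of macrophages, it was GAGGAA. For STAT factors it was TTCNNNGAA, and for STAT6 it was TTCNNNNGAA. The kappa B motif of NF-κB was searched too. In the Il1a window a C/EBP match began at -43, overlapping a PU.1 match at -41, followed by TATA at -32 and AP-1 at -12. The Il1b window held C/EBP at -91 and TATA at -31, and that of Tnf held TATA at -29, C/EBP at -181 and -41 and PU.1 at -117. A STAT6 match stood at -46 in the Il18 window and at -121 in the downstream window of Il1rn, whose C/EBP match began at -81, while the upstream window of Il1rn held AP-1 at -141. The remaining match, in Il18, was TATA on the opposite strand at -175. Of the 8 cytokines with a window 5 held C/EBP, which 36.8% of all 32851 windows of that length hold, and 4 each held TATA (12.4% of all windows) and AP-1 (6.75%). PU.1 was found in 3 (23.3% of all windows), kappa B in 2, Il6 and Lif (7.25%), and STAT6 in 2 (5.85%), while STAT was found in 0 (7.02%). The 8 cytokines had 10 windows, the extra ones being of Il1rn. A cytokine was counted where any of its windows held the motif, whereas the shares are per window, so the 2 are not strictly alike. A match of letters is a description and no evidence of binding.

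Il1a and Il1b had the same shape over the 4 arrays, lowest on the untreated Dap12-KO array and highest on the WT IL-4 array. Il1a, an alarmin that is active as a precursor, read 9.71 and 8.54 on the IL-4 and untreated Dap12-KO arrays, against 10.72 and 10.002 on the IL-4 and untreated WT arrays. Il1b, the secreted and inflammasome-processed ligand, read 8.72 and 7.67 on the Dap12-KO arrays, against 9.91 and 8.89 on the WT arrays. Both genes were thus higher with IL-4 than without it in each genotype and lower on the Dap12-KO array than on the WT array at each treatment. For Il1a the IL-4 difference was 1.16 (2.24-fold) on the Dap12-KO arrays and 0.72 (1.64-fold) on the WT arrays. For Il1b it was 1.05 (2.08-fold) on the Dap12-KO arrays and 1.02 (2.03-fold) on the WT arrays, a difference of responses of 0.03 that was 0.64 after cyclic loess and 0.55 after quantile normalization. The 7 measured neutrophil markers, of a cell type that also makes IL-1β, did not move as one. With IL-4, 6 of 7 were higher on the Dap12-KO arrays and 2 of 7 on the WT arrays, and on the Dap12-KO array 6 of 7 were higher with IL-4 and 3 of 7 untreated, relative to WT. On the Dap12-KO arrays 7 of 8 T and NK cell and 8 of 9 mesothelium and fibroblast markers were also higher with IL-4. So were 4 of 5 dendritic cell and 4 of 5 eosinophil markers, against 1 of 7 mast cell, 1 of 4 B cell and 0 of 8 macrophage markers. Of the 7 neutrophil markers 5 reached the floor on the Dap12-KO IL-4 array, 2 on the untreated Dap12-KO array, 1 on the WT IL-4 array and 2 on the untreated WT array. S100a8, the 1 that was lower with IL-4 on the Dap12-KO arrays, read 7.86 and 9.52 on the IL-4 and untreated Dap12-KO arrays, against 9.20 and 10.09 on the WT arrays, and Camp read 8.20 and 6.72, against 5.89 and 6.54. All these marker values are as deposited. On the Dap12-KO IL-4 array the lower quartile of all probe sets was 5.47, against 5.29 to 5.31 on the other arrays. Its upper quartile was 8.01, against 8.50 to 8.56. Dim probe sets thus read higher there in general and bright ones lower. The part of that shift in the marker counts, and of these cell types in the result, was not tested.

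**Figure D1:**
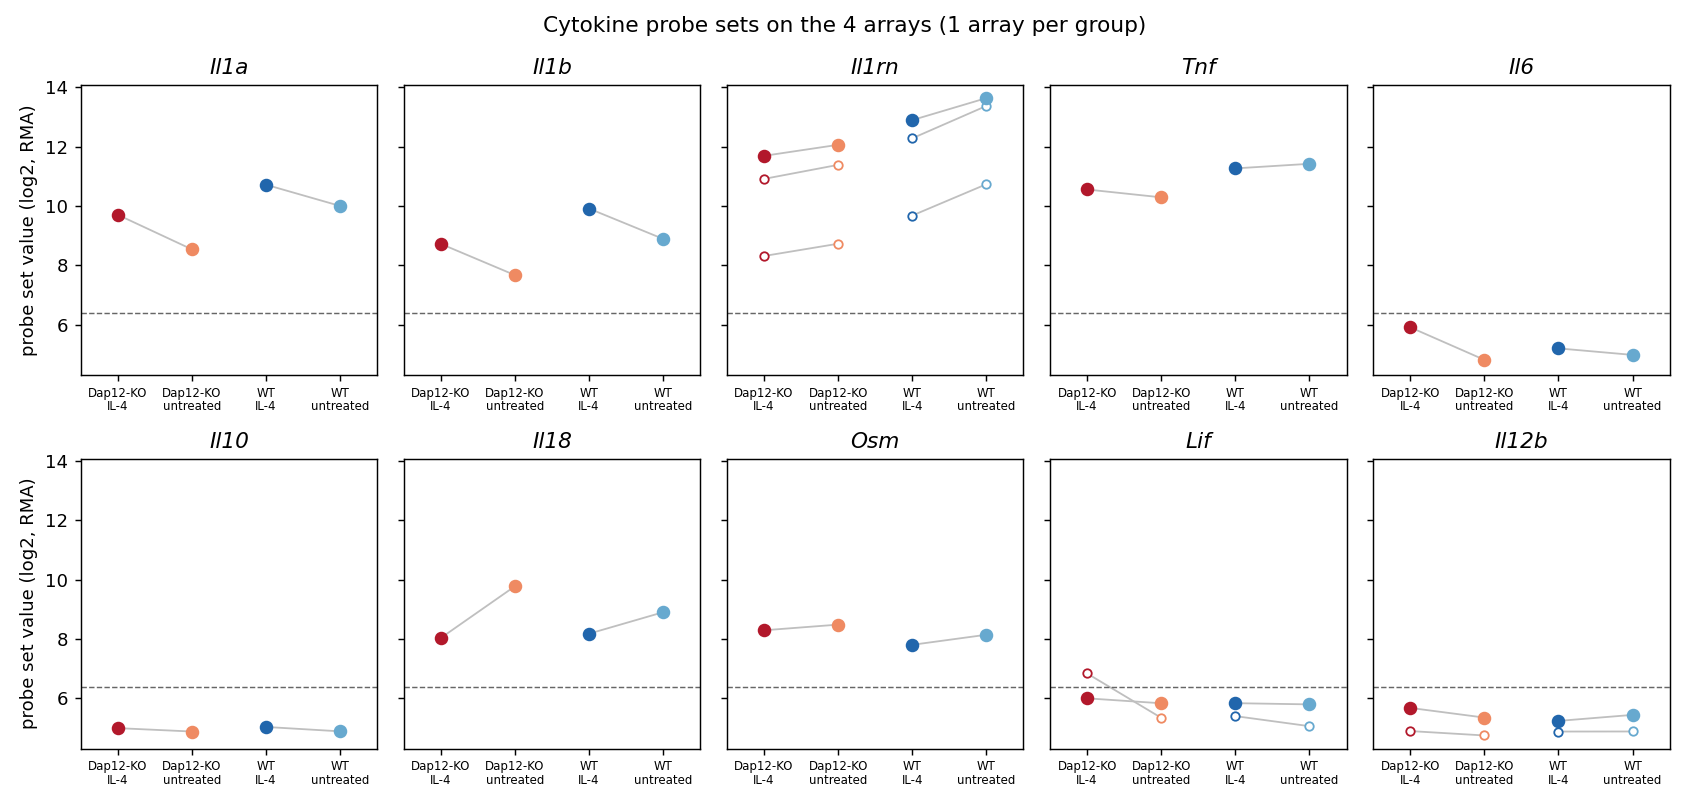
Log2 probe set values (vertical axis) of the 10 cytokines on the 4 arrays, 1 panel per gene, with filled points for the probe set used, open points for the others, lines joining the arrays of a genotype and a dashed line at the level floor of 6.39. Il1a and Il1b share one shape, the 3 Il1rn probe sets run in parallel, and Il6, Il10 and Il12b lie below the floor on every array.

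Il1rn, the natural antagonist of both ligands, ran the other way with IL-4 on the WT arrays and the same way between genotypes. On the Dap12-KO arrays its direction with IL-4 depended on the scaling. Its brightest probe set (1451798_at) read 11.69 and 12.06 on the IL-4 and untreated Dap12-KO arrays, against 12.89 and 13.64 on the WT arrays. Another (1425663_at) read 10.91 and 11.39 on the Dap12-KO arrays, against 12.28 and 13.37 on the WT arrays, and the third (1423017_a_at) read 8.31 and 8.73, against 9.68 and 10.73. As deposited, all 3 thus put the Dap12-KO IL-4 array lowest and the untreated WT array highest. The untreated Dap12-KO array was lower than the untreated WT array by 2.98-fold, 3.96-fold and 4.01-fold on the 3 probe sets, so the probe set chosen to represent the gene gave the smallest of the 3 sizes. With IL-4 the Dap12-KO array was lower by 2.30-fold, 2.58-fold and 2.57-fold. The IL-4 difference on the WT arrays was -0.74, -1.09 and -1.06 on the 3 probe sets, and on the Dap12-KO arrays it was -0.37, -0.47 and -0.41. The median over all genes was -0.03 on the WT arrays and -0.40 on the Dap12-KO arrays. After cyclic loess the Dap12-KO value of the brightest probe set turned to 0.12, and after quantile normalization also to 0.12, while the WT value stayed at -0.71 and -0.76. Under both of these scalings that probe set was lowest on the untreated Dap12-KO array.

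Tnf and Il18 were each ordered differently. Tnf read 10.56 and 10.29 on the IL-4 and untreated Dap12-KO arrays, against 11.27 and 11.42 on the WT arrays. It was lower on both Dap12-KO arrays than on either WT array, by 2.19-fold untreated and 1.64-fold with IL-4, and its IL-4 differences were 0.26 (Dap12-KO) and -0.16 (WT). The Dap12-KO value was 0.87 after cyclic loess and 0.82 after quantile normalization. The genotype difference with IL-4, -0.71 as deposited, was -0.04 after cyclic loess and -0.11 after quantile normalization, whereas the untreated difference was -1.13, -1.03 and -1.05.

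Il18 read 8.04 and 9.78 on the IL-4 and untreated Dap12-KO arrays, against 8.18 and 8.91 on the WT arrays. The untreated Dap12-KO array was thus the highest of the 4, the opposite of its place for Il1a and Il1b, and both IL-4 arrays were lower than both untreated ones. The IL-4 difference was -1.74 (3.35-fold lower) on the Dap12-KO arrays and -0.72 (1.65-fold lower) on the WT arrays. The Dap12-KO minus WT difference was 0.88 untreated and -0.14 with IL-4, and the sign with IL-4 turned with the scaling, to 0.55 after cyclic loess and 0.37 after quantile normalization.

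Osm, a gp130 cytokine, varied little, reading 8.30 and 8.49 on the IL-4 and untreated Dap12-KO arrays, against 7.81 and 8.15 on the WT arrays. Both Dap12-KO arrays were above both WT arrays, by 0.34 untreated and 0.49 with IL-4. After cyclic loess the second difference was 1.09 and the IL-4 difference on the Dap12-KO arrays was 0.38, against -0.19 as deposited.

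The 4 cytokines below the floor gave values from which no level can be read. Il6 read 5.91 and 4.82 on the IL-4 and untreated Dap12-KO arrays, against 5.20 and 4.98 on the WT arrays. Il10 lay between 4.89 and 5.04 on the 4 arrays, and the 2 probe sets of Il12b lay between 4.75 and 5.68. The Lif probe set used (1421207_at) read 6.005 and 5.84 on the Dap12-KO arrays, against 5.84 and 5.80 on the WT arrays. The second Lif probe set (1450160_at) read 6.84 on the Dap12-KO IL-4 array, above the floor, and 5.35 on the untreated Dap12-KO array, against 5.41 and 5.07 on the WT arrays. The lower quartile of all probe sets was 5.47 on the Dap12-KO IL-4 array and 5.31, 5.29 and 5.30 on the untreated Dap12-KO, WT IL-4 and untreated WT arrays, so dim probe sets in general read higher there.

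Differences of 2-fold or more were counted among the 6 cytokines above the floor and set beside the share of all 12767 genes above it. With 1 array a group, such a count carries no test, and the comparisons share arrays. In untreated cells 4 of the 6 were lower on the Dap12-KO array, namely Il1a (-1.46), Il1b (-1.22), Il1rn (-1.57) and Tnf (-1.13), and 0 were higher, where 3.41% of all genes were lower and 3.12% higher. Their median difference was -1.17, against 0.03 over all genes, and between 1.10% (Il1rn) and 2.51% (Tnf) of all genes lay below these 4. Il18, at 0.88, stood above 95.7% of genes. All 4 differences were -1.03 or lower after cyclic loess too, where 4 of the 6 were again lower. Of the 9 mesothelium and fibroblast markers, 5 were lower on the untreated Dap12-KO array, among them Col3a1 (-1.30), Col1a2 (-1.26) and Dcn (-1.08). The 4 that were higher were Pdgfra (0.76), Col1a1 (0.43), Krt18 (0.38) and Krt8 (0.19). The log2 summed signals of the 9 were 9.84 and 9.42 on the IL-4 and untreated Dap12-KO arrays, against 9.94 and 9.98 on the WT arrays. Of the other lists, 4 of 4 B cell, 6 of 7 mast cell, 6 of 8 macrophage and 4 of 5 eosinophil markers were higher on the untreated Dap12-KO array. Fewer were higher for neutrophil (3 of 7), T and NK cell (3 of 8) and dendritic cell markers (1 of 5). The part of these cell types in the result was not tested.

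With IL-4, 3 of the 6 were lower on the Dap12-KO array, Il1a (-1.01), Il1b (-1.19) and Il1rn (-1.20), and 0 were higher. That comparison uses the narrow array, and there 17.6% of all genes were lower and 10.9% higher, with a median of -0.39. Of all genes 11.0% (Il1rn), 11.5% (Il1b) and 17.1% (Il1a) lay below them, so these values were less extreme among genes than the untreated ones. After cyclic loess they were -0.66, -0.49 and -0.28, 0 of the 6 cytokines were lower at 2-fold, and Osm (1.09) was higher.

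The IL-4 response of the WT arrays was narrow, with 1.21% of genes 2-fold higher and 1.25% lower. Il1b (1.02) was the 1 cytokine of 6 past 2-fold, above 98.8% of genes, and Il1a (0.72) stood above 97.8%. At the other end 2.67% of genes lay below Il1rn (-0.74) and 2.83% below Il18 (-0.72). On the Dap12-KO arrays 8.04% of genes were 2-fold higher with IL-4 and 17.6% lower. Il1a (1.16) and Il1b (1.05) were higher and Il18 (-1.74) lower, making 3 of 6. Il1a stood above 94.8% and Il1b above 93.0% of genes there, and 3.18% lay below Il18. After cyclic loess Il1a was at 1.83, Il1b at 1.70 and Il18 at -1.10.

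The difference between the 2 IL-4 responses, Dap12-KO minus WT, was lower at 2-fold for Il18 alone (-1.02), where 14.8% of all genes were lower and 8.15% higher. It was 0.45 for Il1a, 0.37 for Il1rn, 0.42 for Tnf, 0.15 for Osm and 0.03 for Il1b, where the median gene was at -0.36. After cyclic loess Il18 was at -0.41, Il1a at 1.08, Tnf at 0.99 and Il1b at 0.64, so 1 cytokine was higher and 0 lower. The spread of responses between mice of a genotype was not measured.

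**Figure D2:**
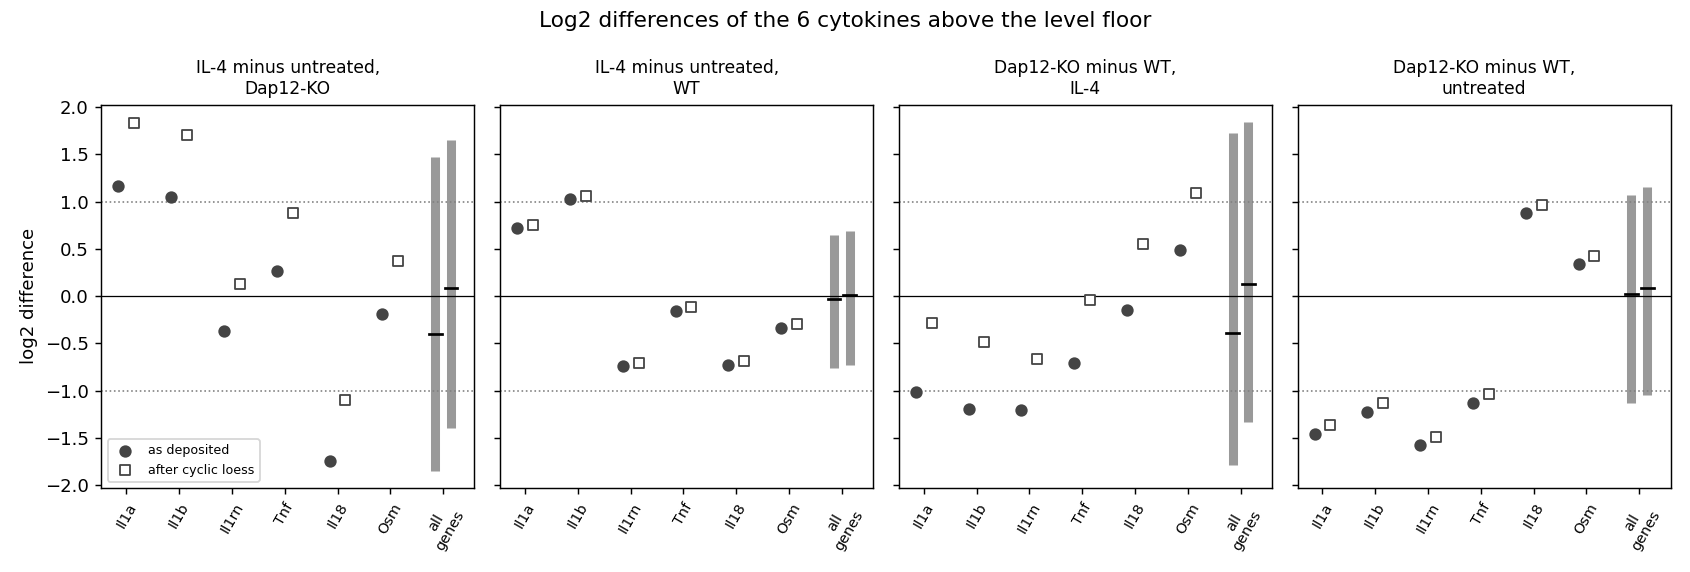
Log2 differences (vertical axis) of the 6 cytokines above the floor in 4 comparisons, filled as deposited and open after cyclic loess, with grey bars for the central 95% of all 12767 genes, a black tick at their median and dotted lines at 2-fold. Il1a, Il1b, Il1rn and Tnf lie at or below -1.03 in the untreated comparison of genotypes under both scalings, while the differences that use the Dap12-KO IL-4 array shift upwards after cyclic loess.

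The IL-4 effect was also tested over both genotypes with limma, blocking on genotype and adjusting p-values by Benjamini-Hochberg over all 12767 genes. Of these 1.64% passed an adjusted p of 0.05, 69 that rose and 141 that fell. Among the 6 cytokines 0 passed, and 3 had an unadjusted p under 0.05. These were Il18 at -1.23 ± 0.42 (SE, adjusted p = 0.133, limma), Il1b at 1.04 ± 0.42 (adjusted p = 0.289) and Il1a at 0.94 ± 0.42 (adjusted p = 0.379), each in the same direction in both genotypes. The other estimates were -0.56 for Il1rn (adjusted p = 0.720), -0.27 for Osm (adjusted p = 0.827) and 0.05 for Tnf (adjusted p = 0.961). Only 1 residual degree of freedom stood behind the fit, and limma set the same standard error of 0.42 for every gene, from 1 variance pooled over all genes. That residual is the difference between the IL-4 responses of the 2 genotypes and no spread among replicates, and it takes in the narrow array. After cyclic loess the median standard error was 0.25. Over the 8 alternative settings the adjusted p of Il18 ran between 0.0835 and 0.923 and that of Il1b between 0.217 and 0.923.

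Ratios of 2 cytokines on the same array cancel any shift common to both, and their differences between arrays were computed after the data had been seen. The log2 ratio of Il1rn to Il1b, antagonist to agonist, was lower with IL-4 than without, with a difference of -1.43 on the Dap12-KO arrays and -1.76 on the WT arrays. The scalings left this nearly in place, with differences of -1.58 and -1.77 after cyclic loess and -1.46 and -1.78 after quantile normalization. The Il1rn to Il1a ratio differed by -1.54 on the Dap12-KO arrays and -1.46 on the WT arrays. Between genotypes the Il1rn to Il1b ratio differed by -0.35 untreated and -0.01 with IL-4, and the Il1rn to Il1a ratio by -0.11 untreated and -0.19 with IL-4. These sizes depend on the Il1rn probe set. With the other 2 the untreated differences were -0.77 and -0.79 for Il1rn to Il1b and -0.52 and -0.54 for Il1rn to Il1a, and the IL-4 differences of Il1rn to Il1b were -1.53 and -1.47 on the Dap12-KO arrays and -2.11 and -2.08 on the WT arrays.

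The Il18 to Il1b ratio, which sets both inflammasome substrates side by side, was lower with IL-4 in both genotypes, with a log2 difference of -2.80 on the Dap12-KO arrays and -1.75 on the WT arrays. It was higher on the Dap12-KO array by 2.10 untreated and by 1.05 with IL-4. After cyclic loess the 2 genotype values were 2.09 and 1.04, and after quantile normalization 2.04 and 0.91. The Tnf to Il1b ratio differed by -0.79 with IL-4 on the Dap12-KO arrays and by -1.18 on the WT arrays, and between genotypes by 0.09 untreated and 0.48 with IL-4. Such a ratio shows unequal change of its 2 genes and not which of them moved.

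**Figure D3:**
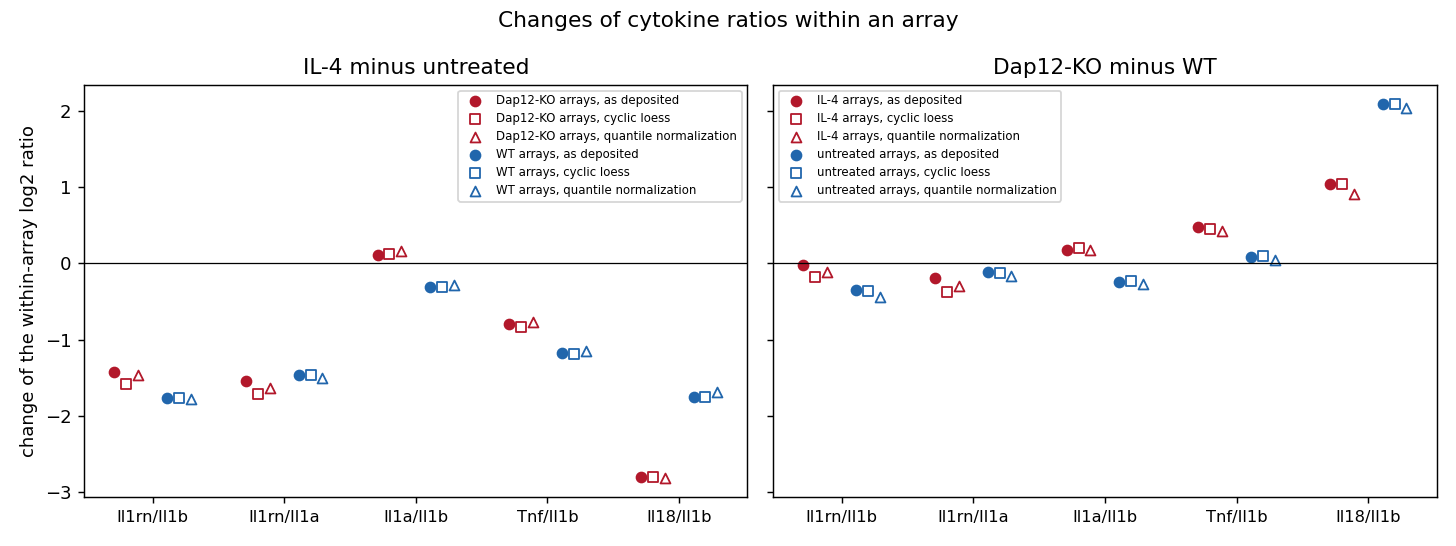
Difference between arrays of the within-array log2 ratio of 5 cytokine pairs (vertical axis), IL-4 minus untreated at left and Dap12-KO minus WT at right, as deposited (circles), after cyclic loess (squares) and after quantile normalization (triangles). The symbols of a pair lie close together, with the Il1rn to Il1b ratio between -1.43 and -1.78 for IL-4 and the Il18 to Il1b ratio at 2.10 as deposited for the untreated genotypes.

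The genes most like each cytokine were found by the Euclidean distance between values centred on each gene's mean over the 4 arrays, for the 5 cytokines whose values spanned 1 log2 unit or more. Over 4 arrays this is a description of shape with no test. Il1b was the third nearest of 12766 genes to Il1a, at a distance of 0.233, and Il1a the fifth nearest to Il1b. Nearest to Il1a was Fosl2 (0.117), an AP-1 subunit, ahead of Zyx (0.195), which encodes the focal adhesion protein zyxin. Zyx (0.0692) was nearest to Il1b, followed by Rrp8 (0.140), a nucleolar factor, and Lrmp (0.145), a membrane protein of the endoplasmic reticulum. Nfkbid (0.146), a nuclear IκB protein, was nearest to Il1rn, ahead of Cmklr1 (0.229), the chemerin receptor, and Kif26b (0.232). For Tnf they were Pold4 (0.0637), a DNA polymerase subunit, Rab26os (0.0797) and Dcn (0.0797), the proteoglycan decorin, which is a fibroblast marker. For Il18 they were Zfp503 (0.0334), Rnpep (0.0717), an aminopeptidase, and Il10ra (0.0869), the ligand-binding chain of the IL-10 receptor. Il18 and Il1b were far apart, at 2.81, with 98.4% of genes nearer to Il18 than Il1b was.

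The pathway around these cytokines was read from 7 gene lists, of which 72 genes above the floor entered the limma test of IL-4. Of these 5 passed, 3 that rose and 2 that fell, where 1.64% of all genes passed, and none of the 5 passed after cyclic loess or quantile normalization, under which 0 genes passed in the whole table (856 and 602 at an unadjusted p under 0.05). With the median over probe sets, Il15 (adjusted p = 0.00750, limma) and Nfil3 (0.00305) passed. Irak3 (0.201), Csf1 (0.216) and Il1r1 (0.428) did not pass there. Among 12 receptors and decoys above the floor, Il1r1, the signalling receptor of both IL-1 ligands, rose with IL-4. It read 8.75 and 7.43 on the IL-4 and untreated Dap12-KO arrays, against 9.22 and 7.46 on the WT arrays (1.54, adjusted p = 0.0205 by limma, between 0.0151 and 0.728 over the alternatives). Il6st, which encodes gp130, did not pass but was higher with IL-4 by 1.16 and 1.53, reading 11.50 and 10.33 on the Dap12-KO arrays and 12.22 and 10.69 on the WT arrays. Il10ra read 7.80 and 9.55 on the Dap12-KO arrays and 8.04 and 8.66 on the WT arrays, close to the shape of Il18.

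At other receptors the Dap12-KO and WT arrays differed, with 1 array per group and no test. Il1rap, the shared co-receptor of IL-1 and IL-33, read 7.46 and 7.38 on the IL-4 and untreated Dap12-KO arrays, against 9.42 and 8.43 on the WT arrays. Sigirr, an inhibitory member of the IL-1 receptor family, read 8.32 and 7.45 on the Dap12-KO arrays, against 6.40 and 6.81 on the WT arrays. Its WT IL-4 value of 6.40 lay at the floor of 6.39. Il1rap was thus lower on both Dap12-KO arrays (log2 difference -1.05 untreated and -1.96 with IL-4) and Sigirr higher (0.64 and 1.92). After cyclic loess the untreated values were -0.97 for Il1rap and 0.69 for Sigirr, and the IL-4 values were -1.36 and 2.18. Of the 12 receptors and decoys 1 was lower at 2-fold untreated and 0 higher, where 3.41% of all genes were lower and 3.12% higher. With IL-4, 1 was lower and 1 higher, where 17.6% of all genes were lower and 10.9% higher. After cyclic loess 0 were lower untreated, and with IL-4 2 were lower and 1 higher. Over the 12 receptors and decoys the median IL-4 difference was -0.23 on the Dap12-KO arrays and -0.08 on the WT arrays, against -0.40 and -0.03 over all genes, and the untreated genotype median was 0.01, against 0.03. Lifr was above the floor only on the WT IL-4 array, at 6.55, against 5.37 on the untreated WT array.

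Among 13 genes of processing and release, 0 passed for IL-4. Naip5, a sensor of bacterial flagellin in the NLRC4 inflammasome, read 9.58 and 11.34 on the IL-4 and untreated Dap12-KO arrays, against 9.31 and 9.63 on the WT arrays, and its relative Naip2 read 9.58 and 11.13, against 9.97 and 10.68. For both the untreated Dap12-KO array was the highest of the 4, as it was for Il18. The share of all genes that were highest on that array was not counted. Nlrp3, the sensor of the inflammasome that processes IL-1β and IL-18, read 8.99 and 8.66 on the Dap12-KO arrays, against 8.59 and 9.45 on the WT arrays. Its IL-4 difference was 0.33 on the Dap12-KO arrays and -0.86 on the WT arrays, and 0.99 and -0.82 after cyclic loess. The list's median untreated genotype difference was -0.14, with Naip5 (1.71) the 1 gene of 13 past 2-fold, where 3.12% of all genes were higher and 3.41% lower.

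In the MyD88 and NF-κB list, 1 of 15 genes passed. Irak3, which encodes the inhibitory kinase IRAK-M, fell with IL-4, reading 7.83 and 9.46 on the Dap12-KO arrays, against 8.53 and 10.03 on the WT arrays (-1.57, adjusted p = 0.0176 by limma, between 0.0130 and 0.728 over the alternatives). In untreated cells Rel (-1.10), which encodes the c-Rel subunit, and Tnfaip3 (-1.05), which encodes the feedback inhibitor A20, were the 2 of 15 lower on the Dap12-KO array, where 3.41% of all genes were lower, with a list median of -0.05; after cyclic loess they were at -1.02 and -0.97. With IL-4, 3 of 15 were lower on the Dap12-KO array as deposited, a share near the 17.6% of all genes, and 0 after cyclic loess.

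Among 12 regulators of cytokine mRNA decay 0 passed for IL-4. Zfp36l1, an AU-rich element binding protein, read 10.60 and 11.07 on the IL-4 and untreated Dap12-KO arrays, against 11.36 and 9.79 on the WT arrays. It was higher with IL-4 on the WT arrays (1.58) and not on the Dap12-KO arrays (-0.47 as deposited and 0.15 after cyclic loess), a difference of -2.05 that was -1.46 after cyclic loess and was not tested. Zc3h12c, of the regnase family of ribonucleases, read 7.60 and 8.21 on the Dap12-KO arrays, against 10.06 and 9.64 on the WT arrays. The Dap12-KO minus WT difference was -1.43 untreated and -2.46 with IL-4, and it was -1.34 and -1.75 after cyclic loess.

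In the IL-10 and STAT3 list 1 of 8 genes passed. Nfil3, a bZIP factor that restrains Il12b in macrophages, rose with IL-4, reading 9.02 and 7.03 on the Dap12-KO arrays, against 8.61 and 7.29 on the WT arrays (1.66, adjusted p = 0.00940 by limma, between 0.00305 and 0.728 over the alternatives). Socs3, the feedback inhibitor of gp130 signalling, read 10.10 and 9.70 on the Dap12-KO arrays, against 10.55 and 9.37 on the WT arrays. Its IL-4 difference was 0.40 on the Dap12-KO arrays and 1.19 on the WT arrays as deposited, and 1.06 and 1.22 after cyclic loess, and it did not pass the test over both.

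Of 21 other myeloid cytokines 17 were measured and 10 were above the floor, of which 2 passed for IL-4. Csf1, the macrophage growth factor, rose, reading 9.12 and 8.02 on the IL-4 and untreated Dap12-KO arrays, against 10.70 and 8.73 on the WT arrays (1.53, adjusted p = 0.0219 by limma, between 0.0160 and 0.923 over the alternatives). Il15, a survival factor for NK and memory T cells, fell, reading 6.22 and 8.60 on the Dap12-KO arrays, against 6.81 and 7.54 on the WT arrays (-1.56, adjusted p = 0.0187, between 0.00750 and 0.817). The IL-4 difference of Il15 was -2.38 on the Dap12-KO arrays and -0.73 on the WT arrays. Its value of 6.22 on the Dap12-KO IL-4 array lay below the floor of 6.39. The untreated Dap12-KO array was highest for Il15, as for Il18.

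Between untreated genotypes 2 of these 10 were lower and 2 higher on the Dap12-KO array, where 3.41% of all genes were lower and 3.12% higher. Tgfb1, a regulatory cytokine, was lower, at 8.91 and 9.01 on the IL-4 and untreated Dap12-KO arrays, against 10.66 and 10.41 on the WT arrays. Clcf1, a ligand of the gp130 family, was also lower, at 6.62 and 6.70, against 7.92 and 8.48. Il16 was higher, at 7.59 and 8.65, against 6.95 and 7.43, as was Il15 (1.06). After cyclic loess the Dap12-KO minus WT difference of Tgfb1 was -1.30 untreated and -1.02 with IL-4. Of 12 cytokines typical of lymphocytes 10 were measured and 2 were above the floor, Il9 and Il13, of which 0 passed. Il13 was above it only on the Dap12-KO IL-4 array, at 6.75, where dim probe sets in general read higher.

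**Figure D4:**
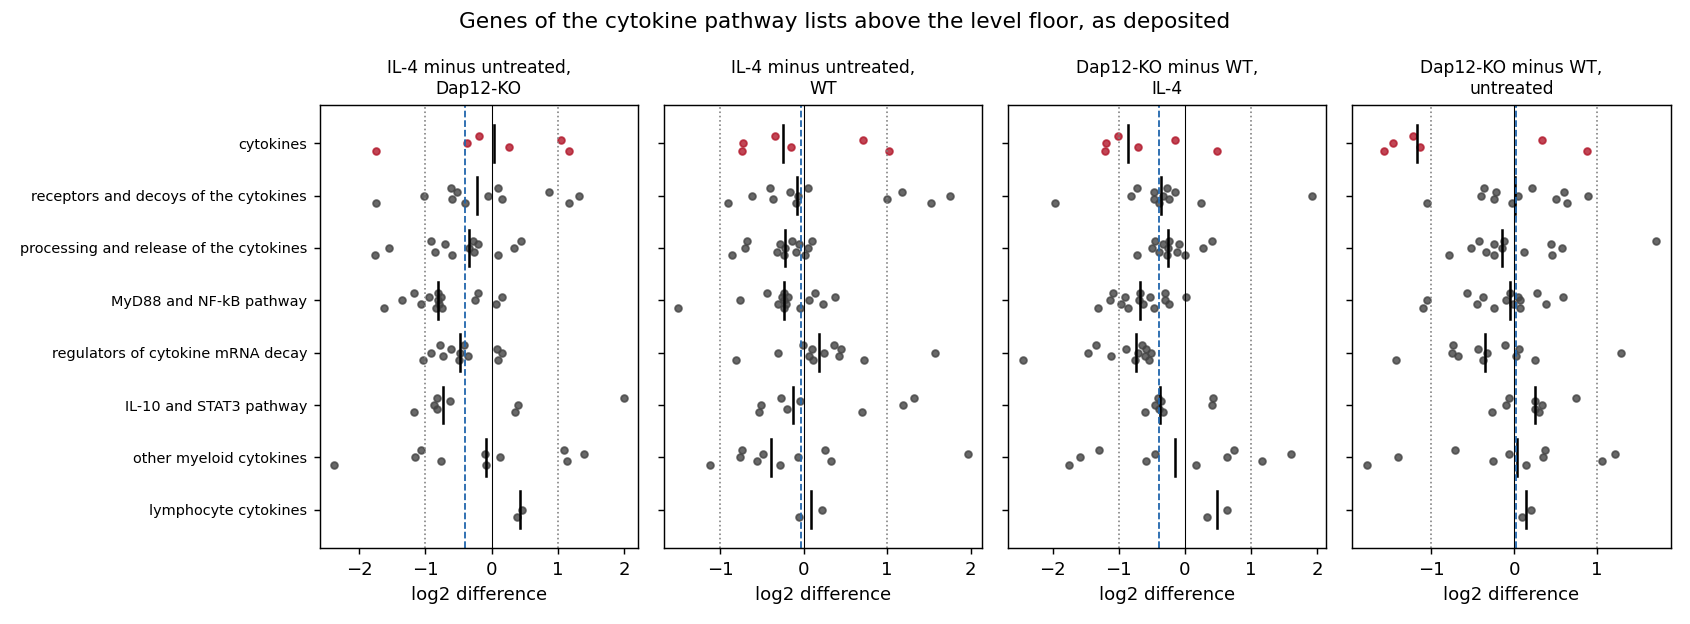
Log2 differences (horizontal axis) of the genes above the floor in the cytokine group (red) and in the 7 pathway lists (grey), in 4 comparisons as deposited, with a black bar at each list's median, a dashed blue line at the median of all genes and dotted lines at 2-fold. In untreated cells the cytokine median lies at -1.17, while that of the receptors lies at 0.01 and that of the processing genes at -0.14.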

How the data were processed

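The 4 samples of total RNA were each put on 1 Affymetrix array as biotin-labelled cRNA amplified in 2 cycles, per the labels' protocols. The values are log2 probe set signals that the authors deposited; the submitters' processing notes name RMA and give no version. RMA usually equalizes probe distributions before summarizing, and both it and amplification act on the size of differences. Arrays give no read depth, and detection calls were not used here.

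Names came from the platform annotation, and Entrez identifiers linked 34741 of 45101 probe sets to current RefSeq symbols (GRCm38.p6). There were 34945 probe sets with 1 gene, 932 with several, 9160 with none and 64 controls. The members, pathway lists and named-gene rule were chosen with earlier results of these data known. Named were all 10 cytokines, Tyrobp, up to 3 genes of each list and comparison with the largest difference, and the 3 genes nearest to each cytokine that spanned 1 log2 unit. S100a8, S100a9, Camp, Col3a1, Col1a2, Col1a1, Pdgfra, Krt8, Krt18, Dcn as a marker and Nlrp3's IL-4 response on the Dap12-KO arrays were added after their values were seen. Markers of 8 cell types were summed on the linear scale, and those of mast cells, eosinophils, B cells, T and NK cells, dendritic cells and mesothelium summed lower than macrophage markers by over 5 log2 units on every array.

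Differences between 2 arrays have no test. For the IL-4 effect, limma 3.58.1 was run in R 4.3.3 through lmFit and eBayes, with a genotype term. Genotype itself was not tested, because nothing in the labels shows that its 2 arrays came from separate mice. The spread behind a p-value is the difference between the IL-4 responses of the genotypes, which may be technical, and not a spread among replicates. The fit was tested on simulated data. Python 3.11.15, numpy 2.4.6, pandas 2.3.3 and matplotlib 3.10.9 did the rest. Alternatives were cyclic loess (3 iterations), quantile normalization, median centring, other floors (none, or the 75th percentile), a 3-fold threshold, probe sets taken singly or as their median, an eBayes intensity trend and a fit without genotype. The ratios within an array, by Il1rn probe set too, were added after seeing the data.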

Additional observations from a re-analysis of the deposited data

Results flagged for a closer look

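Tnf differed in direction between the IL-4 responses of the genotypes, with an IL-4 minus untreated log2 difference of 0.26 on the Dap12-KO arrays and -0.16 on the WT arrays. The Dap12-KO value was 0.87 after cyclic loess and 0.82 after quantile normalization, and the WT value -0.12 after both. With 1 array per group the difference between these responses was not tested.

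Il18 differed in direction between the genotype comparisons, with a Dap12-KO minus WT log2 difference of -0.14 with IL-4 and 0.88 untreated. That difference was not tested either, and the IL-4 value was 0.55 after cyclic loess.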

How the results depend on the processing

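After cyclic loess, and likewise after quantile normalization, the counts of cytokines at 2-fold moved in 2 of the 3 comparisons that use the Dap12-KO IL-4 array, the exception being IL-4 on the Dap12-KO arrays (2 higher and 1 lower): Dap12-KO against WT with IL-4 gave 1 higher and 0 lower, and the difference of responses 1 higher and 0 lower. Median centring left 1 higher with IL-4 on the Dap12-KO arrays. With the median over probe sets 1 was lower with IL-4 on the WT arrays. At 3-fold the counts were 0 for higher with IL-4 in both genotypes, for lower in Dap12-KO against WT at both treatments and for lower in the difference of responses. Counted over single probe sets, 2 were lower with IL-4 on the WT arrays, 1 was higher and 5 were lower in Dap12-KO against WT with IL-4, and 1 was higher in the difference of responses. Of the 30 log2 differences of the 6 cytokines, 12 moved by over 1.5-fold after cyclic loess, 3 after quantile normalization and 0 after median centring or with the median over probe sets. In limma 0 cytokines passed under each of the 8 alternatives, while the count over all genes was 210 as deposited and 0 after cyclic loess, after quantile normalization or with no level floor (962 at an unadjusted p under 0.05), and 7 with no genotype term. The limma fit is itself paired within genotype, and no array could be left out, since each group holds 1. The narrow spread of the Dap12-KO IL-4 array was not explained by the sources used here, and the cause of the movements was not tested.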
